A study of Mus musculus with 6 samples.

Results

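Transcripts of the Bcl2 family and of the p53 gene (*Trp53*) were examined in *Pdx1-Cre* labelled cells of mouse embryos at E10.5, with and without *mir-302*. The 10 genes were taken by symbol: the antiapoptotic *Bcl2*, *Bcl2l1* and *Mcl1*, the effectors *Bax* and *Bak1*, the BH3-only *Bbc3*, *Pmaip1*, *Bcl2l11* and *Bid*, and *Trp53*. All 10 were found among the 55414 genes listed, and 9 of them passed the filter on low counts that left 16353 genes to test. *Bak1* did not.

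The 6 libraries comprised 3 of genotype Pdx1-Cre+, Tdtomato+, miR-302WT (WT) and 3 of genotype Pdx1-Cre+, Tdtomato+, miR-302KO (KO). WT and KO cells thus both carried the *Pdx1-Cre* transgene, which switches on tdTomato from *Rosa26* in pancreatic and neighbouring foregut cells, and were sorted by that label from the trunk. The parents were heterozygous for *mir-302*, so the KO embryos lacked it in every cell and not only in the *Pdx1* lineage. No source used here says whether a library is 1 embryo or a pool, so p-values measure the spread between these libraries, which may in part be technical.

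The mitochondrial route to apoptosis is governed by this family. Bax and Bak, once active, open the outer mitochondrial membrane and release cytochrome c, which assembles Apaf1 and caspase 9 into the apoptosome. Bcl2, Bcl-xL (from *Bcl2l1*) and Mcl1 hold Bax and Bak in check, and BH3-only proteins relieve that restraint or activate the effectors directly. p53 is kept low by Mdm2 and Mdm4 and, after DNA damage, raises transcription of *Bbc3* (Puma), *Pmaip1* (Noxa), *Bax* and the cell cycle inhibitor *Cdkn1a*. The comparison below asks whether transcripts of this pathway differed between KO and WT.

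Mature miRNAs of the deleted cluster, 3 in number, are shown first because the miR-302 seed defines the sites looked for in the genes. miR-302a and miR-367 are not shown, and sites for miR-367 were not searched. Mature sequences were taken from RefSeq (GRCm38.p6) and are written from 5′ to 3′, with bases 2 to 8, the seed, in capitals. The cluster lies on the plus strand of chromosome 3.
miR-302b-3p (chr3:127545275-127545297): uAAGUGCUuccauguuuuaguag
miR-302d-3p (chr3:127545665-127545687): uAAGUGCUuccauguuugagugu
miR-302c-3p (chr3:127545406-127545427): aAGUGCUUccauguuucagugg
miR-302b-3p and miR-302d-3p have the same seed, AAGUGCU, and the RefSeq entry of miR-302c-3p begins 1 base later in the shared run.

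Complements of AAGUGCU were searched in the longest 3′UTR that GENCODE M21 (GRCm38) gives each gene. The shifted seed of the miR-302c-3p entry was not searched. *Bcl2*, *Mcl1* and *Bcl2l11* held such sites and the other 7 genes held 0. Each site pairs with bases 2 to 8 (AGCACTT, a 7mer-m8 site), and none is followed by the A that would make it an 8mer. Sites are printed in capitals, 5′ to 3′ on the mRNA, with 11 bases on each side.
*Mcl1*, chr3:95662642-95662648, plus strand: tcggacttcagAGCACTTtatgtagttga
*Bcl2*, chr1:106540042-106540048, minus strand: acagttaagggAGCACTTtcatgtagttc
*Bcl2*, chr1:106538836-106538842, minus strand: gatggcacctgAGCACTTcatcctggata
*Bcl2l11*, chr2:128159580-128159586, plus strand: atgccgagtaaAGCACTTgtcttccacaa
*Bcl2l11*, chr2:128159777-128159783, plus strand: cctggtggaggAGCACTTtctaacctgtg
*Bcl2l11*, chr2:128160451-128160457, plus strand: tccccgactggAGCACTTtactgtctcag
Of the 13768 tested genes with an annotated 3′UTR, 20.6% held at least 1 site. A match is a description of the sequence and does not show that the site is used.

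Depth was sufficient for most of the members. Counts summed to between 17352498 and 26634523 per library. The deleted cluster could not check the labels, since *Mir302a*, *Mir302b*, *Mir302c* and *Mir367* had 0 counts throughout and the only counts of *Mir302d* were 2 in KO replicate 3. All 17 pancreatic and foregut markers on a fixed list were detected and summed to 2145 to 2897 CPM (reads of a gene scaled by the library total), although *Ptf1a* and *Nkx6-1*, which mark pancreatic progenitors more strictly, were each under 5 CPM in every library. Of the 17, 5 had an unadjusted p under 0.05 in edgeR, all of them higher in KO (*Nkx6-2*, *Mnx1*, *Gata4*, *Gata6* and *Foxa1*, named after their values were seen), and DESeq2 called 3, where 6.42% and 4.22% of all tested genes were called higher. Their part in the differences below was not tested. Libraries stood apart in transcripts of other cells. The 11 erythroid markers reached 16079 CPM in WT replicate 3 and were at 6425 in KO replicate 1, 350.3 in KO replicate 3 and 3.96 to 5.81 in the others. Mesenchymal markers summed to 36.2 CPM in KO replicate 2 and to 181.2 to 1042 CPM elsewhere. In KO replicate 2, *Col1a2* made up 34.9 CPM of that sum, while *Col1a1* and *Col3a1* were at 0. Endothelial markers summed to 27.6 CPM in KO replicate 1 and to 1.65 to 9.13 CPM elsewhere. Liver markers summed to 566 CPM in KO replicate 2 and to 662.1 to 1831 CPM elsewhere. In bulk libraries, fewer cells of a type and less RNA per cell cannot be told apart.

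Compared per length of exon, the 10 transcripts covered a wide range. *Trp53* was the most abundant, at 42.9 ± 2.82 CPM per kb (SD over 6 libraries), and lay above 90.8% of tested genes. *Bax* (26.5 ± 3.39 CPM per kb) and *Bid* (25.9 ± 2.55) followed and overlapped each other across libraries. *Bcl2l1* was next at 18.04 ± 0.726 CPM per kb. *Mcl1* (10.3 ± 3.85) and *Bcl2l11* (8.579 ± 1.154) overlapped. *Bbc3* was lower at 2.31 ± 0.443 CPM per kb. *Bcl2*, the family's founding gene, was at only 1.09 ± 0.236 CPM per kb and overlapped *Pmaip1* at 0.495 ± 0.371. *Bak1* was last, and the overlaps named are the only ones between neighbours in this order.

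With p-values of edgeR's quasi-likelihood fit adjusted over all genes by Benjamini-Hochberg, 0 of the 9 tested members had an adjusted p under 0.05, nor did any other gene (0% of 16353). An unadjusted p under 0.05 was reached by 1 member, *Mcl1*, where 10.4% of all tested genes reached it (6.42% higher and 3.97% lower in KO). DESeq2's Wald test, which the study used, gave an adjusted p under 0.05 to *Mcl1* alone of the members, against 4.87% of the 14353 genes with such a value (4.22% higher and 0.648% lower in KO). Of the 9, 6 were higher in KO and 3 lower, where 45.6% of all tested genes were higher, and the median log2 fold change was 0.14 beside -0.02 over all tested genes. CPM ranges of the genotypes did not overlap for *Mcl1*, *Bcl2l1* and *Bbc3*, each higher in KO, where 8.36% of all tested genes were separated in that direction. None was separated with KO below WT, as 7.99% of all tested genes were. With 3 libraries a genotype, the smallest p of a two-sided exact permutation test is 0.1, and these 3 genes reached it. Expression below is given as CPM after TMM scaling, and library values are listed in the order of replicates 1, 2 and 3.

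**Figure D1:**
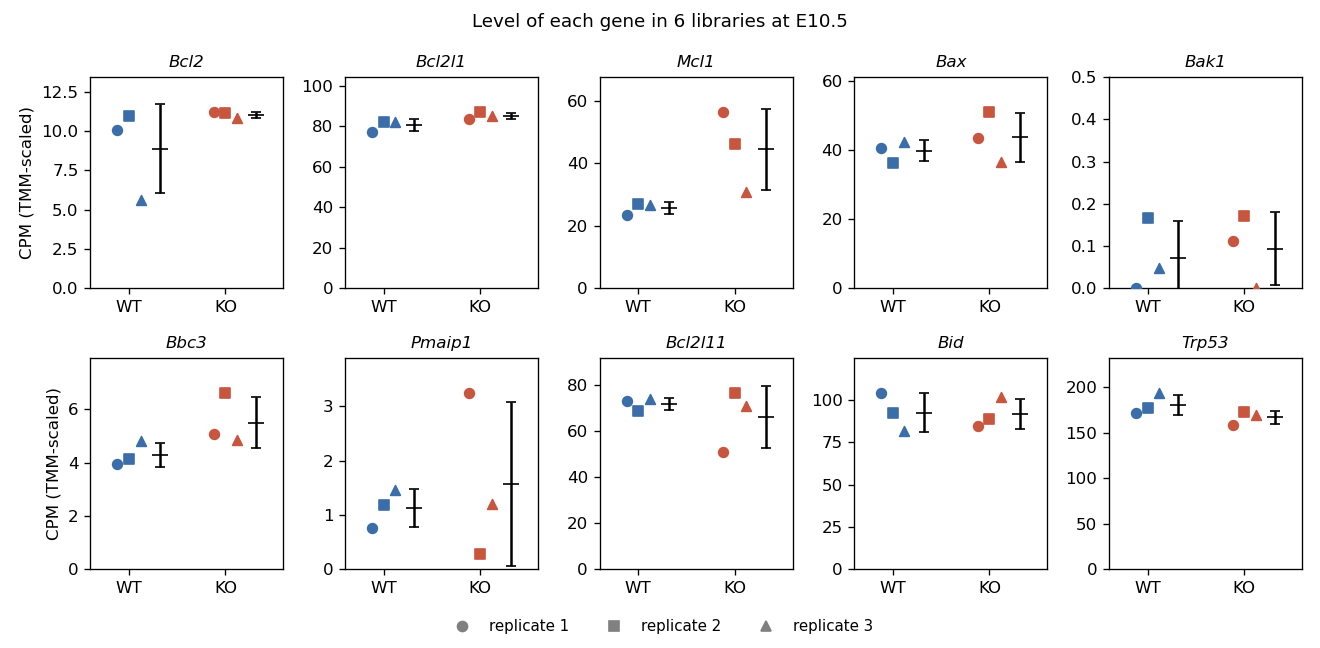
Level of each gene (vertical axis, TMM-scaled CPM, starting at 0) in the WT and KO libraries, with 1 point per library, the point's shape giving the replicate, and the mean ± SD of 3 libraries at the right of each group. *Mcl1* is at 23.6 to 26.9 CPM in WT and 30.8 to 56.4 CPM in KO, while the ranges of *Bax*, *Bcl2l11*, *Bid* and *Trp53* overlap.

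*Mcl1*, an antiapoptotic gene whose mRNA and protein are both short-lived, had the largest difference of the tested members. Its level was 23.6, 26.9 and 26.8 CPM in the WT libraries and 56.4, 46.4 and 30.8 CPM in the KO libraries. The WT libraries lay close together, and the KO libraries were all higher but spread widely, with KO replicate 3 just above WT. *Mcl1* (ENSMUSG00000038612.17) had a log2 fold change of 0.79 (standard error 0.22, 95% interval 0.27 to 1.31, unadjusted p = 0.00837, adjusted p = 0.218 by edgeR). DESeq2's Wald test gave 0.81 (standard error 0.23) with an adjusted p of 0.0113.

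The DESeq2 call on *Mcl1* did not hold in 4 of the 6 fits with 1 library left out, although its log2 fold change stayed near 0.81 in 3 of those 4. It was 0.75 without WT replicate 1 (adjusted p = 0.14), 0.84 without WT replicate 3 (adjusted p = 0.0851) and 0.79 without KO replicate 2 (adjusted p = 0.0668). Without KO replicate 1 it was lower, at 0.60 (adjusted p = 0.24). The call held without WT replicate 2 (0.85, adjusted p = 0.0465) and without KO replicate 3 (1.02, adjusted p = 7.88e-07). In edgeR, the log2 fold change ran from 0.60 without KO replicate 1 to 1.03 without KO replicate 3. The digits of the library codes in the labels begin with 8 for WT replicates 1 and 2 and KO replicate 1, and with 9 for the others. KO exceeded WT by 1.16 on the log2 CPM scale among the first (2 WT, 1 KO) and by 0.50 among the second (1 WT, 2 KO), and by 1.07 between WT replicate 2 and KO replicate 1, whose codes differ only in the last letter. What the code stands for is not given in the sources used here.

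*Mcl1* also has a GC-rich transcript, with 82.5% GC in its richest stretch of 200 bases. The 992 tested genes with such a stretch of 80% to 85% GC had a median of 0.48 on the log2 scale, and 82.7% of them were higher in KO, against -0.05 and 40.3% for the genes with no stretch of 75%. With offsets for this property, the log2 fold change of *Mcl1* was 0.43 in edgeR (unadjusted p = 0.0434, adjusted p = 0.473) and 0.45 in DESeq2 (adjusted p = 0.252). The offsets follow each library's own trend, so they also take up any genotype difference that goes with GC content. The part of GC content in the difference of *Mcl1* was not tested. The seed match in *Mcl1* is the other sequence property at hand. The median over tested genes with a match was -0.03 on the log2 scale, and -0.01 over those without. An unadjusted edgeR p under 0.05 was reached by 13.0% of genes with a match and 10.7% of those without. The part of the match in the difference of *Mcl1* was not tested. Neither the erythroid sum (3.96 to 16079 CPM) nor the summed level of 16 immediate early and heat shock genes (503.1 to 782.4 CPM in WT, 555.1 to 874.5 CPM in KO) separated the genotypes. Of the 15 tested genes in the latter sum, 2 were higher and 1 lower in KO with an unadjusted edgeR p under 0.05. The shares over all tested genes were 6.42% and 3.97%. DESeq2 called 1 of the 15 higher, against 4.22% of all genes with an adjusted p. The part of these genes in the difference of *Mcl1* was not tested. Without WT replicate 3 and KO replicate 1, the libraries with the most hemoglobin, *Mcl1* had a log2 fold change of 0.64 (unadjusted p = 0.0512).

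**Figure D2:**
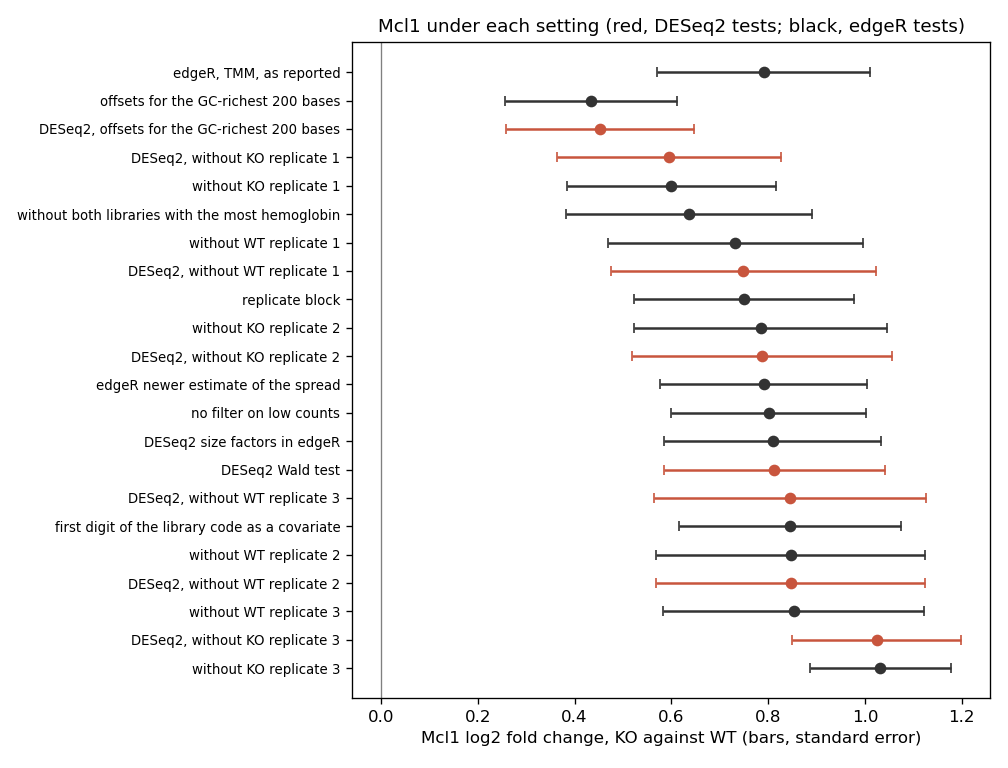
Log2 fold change of *Mcl1*, KO against WT (horizontal axis; bars, standard error), in edgeR with TMM scaling as reported (top) and under 21 other settings sorted by value, with edgeR tests in black and DESeq2 tests in red. Every value is above 0, from 0.43 with offsets for GC-rich stretches to 1.03 without KO replicate 3.

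The balance of antiapoptotic transcripts followed *Mcl1*. Of the summed CPM per kb of *Bcl2*, *Bcl2l1* and *Mcl1*, *Mcl1* made up 27.9%, 29.1% and 29.7% in WT, and 45.9%, 40.2% and 31.4% in KO. *Bcl2l1* was the larger share in every library, at 67.4% ± 0.806 in WT and 57.1% ± 6.92 in KO (SD, n = 3 each), and *Bcl2* contributed 2.34% to 4.43%. The ratio of *Mcl1* to *Bcl2l11* per kb, a BH3-only gene whose product Bim binds Mcl1, was 0.761, 0.919 and 0.852 in WT and 2.61, 1.43 and 1.02 in KO. Per kb, *Mcl1* was thus below *Bcl2l11* in all WT libraries and above it in all KO libraries. The low level of *Bcl2l11* in KO replicate 1 adds to the ratio there. This order depends on the scaling by exon length. In CPM, *Mcl1* was also below *Bcl2l11* in KO replicates 2 (46.4 against 76.5) and 3 (30.8 against 70.7). Only in KO replicate 1 was it above (56.4 against 50.8).

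**Figure D3:**
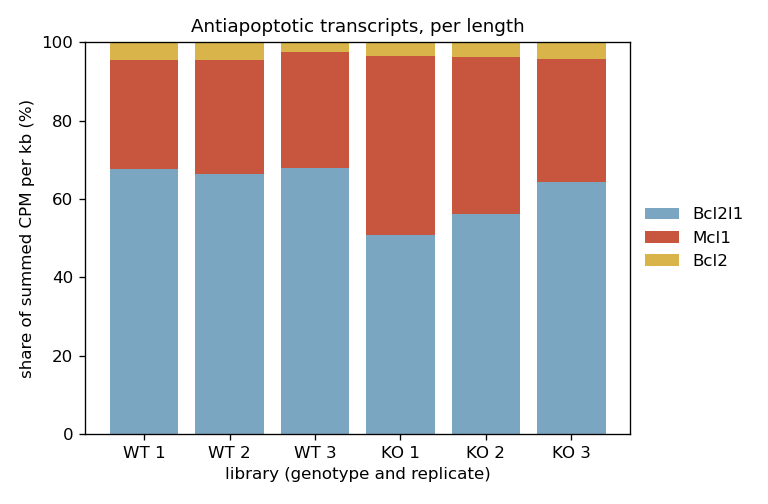
Share of *Bcl2l1*, *Mcl1* and *Bcl2* in the sum of their CPM per kb (vertical axis, percent) in each WT and KO library. *Mcl1* holds 27.9% to 29.7% in WT and 31.4% to 45.9% in KO, and *Bcl2l1* is the larger share in all 6 libraries.

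*Bcl2l1* encodes Bcl-xL, which preserves many developing cell types, red blood cells among them. Its level was 77.0, 82.2 and 82.0 CPM in WT and 83.6, 86.8 and 84.8 CPM in KO. The groups did not overlap, but the highest WT and the lowest KO library lay close together. Its log2 fold change was 0.08 (95% interval -0.09 to 0.25, adjusted p = 0.813 by edgeR). WT replicate 3, with the highest erythroid sum, was at 82.0 CPM, and KO replicate 1, with the next highest, at 83.6 CPM. The part of erythroid cells in the level of *Bcl2l1* was not tested.

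*Bcl2* was at 10.04, 10.9 and 5.63 CPM in WT and at 11.2, 11.1 and 10.8 CPM in KO. WT replicate 3 was low and the other 5 libraries lay between 10.04 and 11.2 CPM. The log2 fold change of 0.32 (95% interval -0.29 to 0.93, adjusted p = 0.788 by edgeR) became 0.11 without WT replicate 3, the only WT library whose code begins with 9. Part of its exons (6.09%) overlaps the antisense gene *D630008O14Rik*, which had at most 2 counts in any library.

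Of the effectors, *Bax* was well expressed and *Bak1* almost absent from the counts. *Bax* had 40.7, 36.4 and 42.2 CPM in WT and 43.5, 50.9 and 36.6 CPM in KO, and the ranges overlapped through KO replicate 3. Its log2 fold change was 0.14 (95% interval -0.21 to 0.49, adjusted p = 0.858 by edgeR). *Bak1* had 0, 3 and 1 counts in WT and 3, 3 and 0 counts in KO, none above the floor of 3 counts, so no fold change is given. A count of 0 allows up to 3 counts, which is 0.141 CPM for WT replicate 1 and 0.163 for KO replicate 3. In GENCODE M21, 18.2% of the exon length of *Bak1* is shared with *Ggnbp1* on the opposite strand, which had 1 to 17 counts. How the counting treated reads on shared exons or strand is not given in the sources used here, and the part of this in the low *Bak1* count was not tested.

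Among BH3-only genes, *Bid* and *Bcl2l11* were abundant and *Bbc3* and *Pmaip1* scarce. *Bcl2l11* (Bim), which binds all the antiapoptotic proteins, had 72.9, 68.7 and 73.8 CPM in WT and 50.8, 76.5 and 70.7 CPM in KO. Only KO replicate 1 stood apart, below the rest. The log2 fold change was -0.12 (95% interval -0.48 to 0.24, adjusted p = 0.88 by edgeR) and 0.05 without KO replicate 1. This gene holds the most sites for the miR-302 seed of the 10, at 3.

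*Bid*, which caspase 8 cleaves to link death receptors to mitochondria, had 104.0, 92.2 and 81.5 CPM in WT and 84.6, 88.9 and 101.5 CPM in KO. The genotypes covered nearly the same range. Its log2 fold change of -0.01 (95% interval -0.29 to 0.26) changed sign with the scaling and with single libraries. Its exons share 17.7% of their length with *Bcl2l13* on the opposite strand, itself at 117.2 to 162.9 CPM, so some reads may belong to either gene.

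The p53 targets *Bbc3* and *Pmaip1* were both low. *Bbc3* had 3.96, 4.13 and 4.81 CPM in WT and 5.07, 6.61 and 4.84 CPM in KO. The groups did not overlap, but KO replicate 3 lay only just above WT replicate 3. The log2 fold change of *Bbc3* was 0.36 (95% interval -0.18 to 0.89, adjusted p = 0.685 by edgeR) and 0.10 with the GC offsets, its richest stretch having 79.5% GC. *Pmaip1* had 16, 21 and 30 counts in WT and 87, 5 and 22 counts in KO. KO replicate 1 was the highest of all 6 libraries and KO replicate 2 the lowest, so the interval of its log2 fold change (-1.27 to 2.28) includes large differences either way. Among libraries whose code begins with 8, KO exceeded WT by 1.68 on the log2 CPM scale, and among those with 9 the difference was -1.14.

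*Trp53* itself was at 171.8, 176.7 and 193.4 CPM in WT and 158.6, 172.5 and 169.0 CPM in KO. WT replicate 1 lay within the KO range. The log2 fold change was -0.12 (standard error 0.08, 95% interval -0.30 to 0.06, adjusted p = 0.705 by edgeR) and -0.03 without WT replicate 3. p53 is controlled mainly at the protein level, which these libraries do not measure. The genes whose log2 CPM followed *Trp53* most closely were *Dr1*, *Actn3* and *Gm11599*, each with a Pearson r of 0.99 over 6 libraries that share the genotype split. An r above 0.9 was found for 110 of 16352 genes, and such likeness over 6 libraries is given only as a description.

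**Figure D4:**
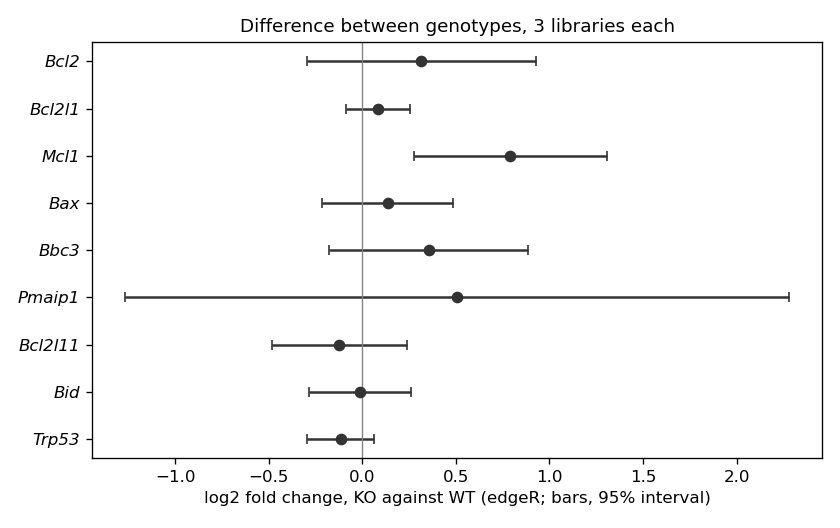
Log2 fold change of each tested gene, KO against WT (horizontal axis; points, edgeR estimate; bars, 95% interval from 3 libraries per genotype). The interval of *Mcl1* (0.27 to 1.31) lies above 0, those of the other 8 genes include 0, and *Pmaip1* has the widest.

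The rest of the pathway was described with 10 lists. Outside the members they held 123 genes, of which 110 were tested. An adjusted p under 0.05 was reached by 0 of them in edgeR, and an unadjusted p under 0.05 by 11, 5 higher and 6 lower in KO, against 10.4% of all tested genes. By DESeq2's adjusted p, 3 were higher (*Ppm1d*, *Plk3* and *Bag1*) and 3 lower (*Mdm4*, *Prkdc* and *Atm*). Of all genes with such a value, 4.22% were called higher and 0.648% lower. Values with ± are means and SD of 3 libraries per genotype. The median log2 fold change was 0.0046.

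**Figure D5:**
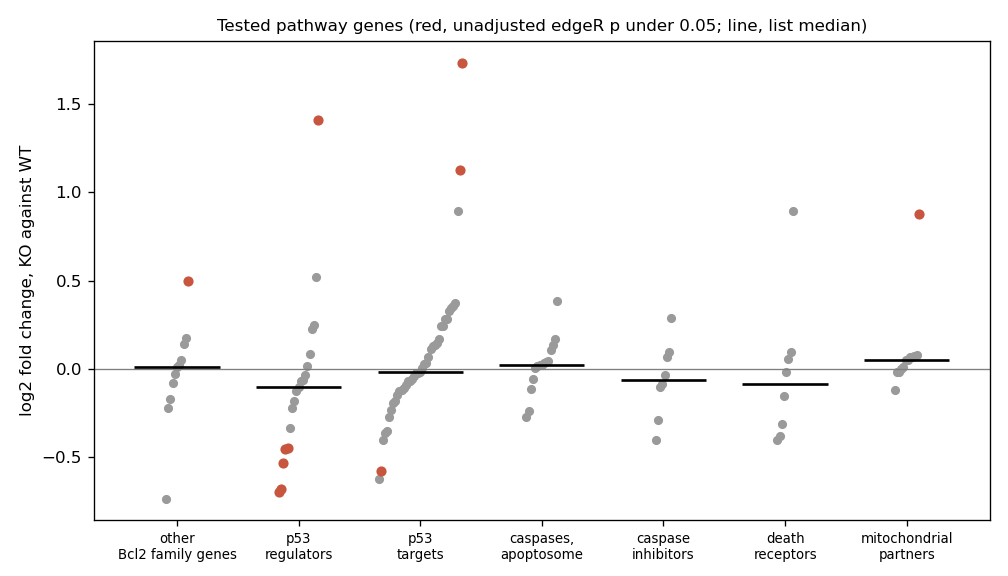
Log2 fold change, KO against WT (vertical axis), of each tested gene in 7 groups that cover the pathway lists, with genes of an unadjusted edgeR p under 0.05 in red and the median of each group as a line. Medians lie between -0.10 and 0.05, and the lower red points are mostly p53 regulators.

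Of 21 p53 relatives and regulators, 19 were tested, 13 were lower in KO and the median was -0.10. In edgeR, an unadjusted p under 0.05 was reached by 1 that was higher and 5 that were lower. Over all tested genes, 10.4% had such a p, 6.42% higher and 3.97% lower in KO. An adjusted p under 0.05 was reached by 0 of these regulators in edgeR. DESeq2 called 1 of them higher and 3 lower, against 4.22% and 0.648% of all genes with an adjusted p. The genotypes were separated in 1 that was higher and 6 that were lower, against 8.36% and 7.99% of all tested genes. *Ppm1d*, the phosphatase Wip1 that switches the p53 response off, had 7.54, 15.3 and 9.37 CPM in WT and 33.1, 25.8 and 26.4 CPM in KO, a log2 fold change of 1.41 (standard error 0.27, unadjusted p = 0.00119, adjusted p = 0.132 by edgeR). All KO libraries were well above all WT libraries, and the value was 1.21 with the GC offsets (richest stretch 78.5% GC).

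Regulators with lower values in KO included both inhibitors and activators of p53. *Mdm4*, an inhibitor that binds p53, was at 92.9 ± 2.19 (WT) and 68.2 ± 10.4 CPM (KO) (log2 fold change -0.45, adjusted p = 0.196 by edgeR). *Prkdc* and *Atm* encode kinases that signal DNA breaks, the latter to p53. *Prkdc* was at 34.1 ± 4.89 (WT) and 21.3 ± 3.63 CPM (KO) (log2 fold change -0.68), and *Atm* at 41.0 ± 1.27 and 25.3 ± 7.41 CPM (log2 fold change -0.70). The other lower regulators with an unadjusted p under 0.05 were the acetyltransferase gene *Crebbp* (-0.45) and *Usp7* (-0.53), a deubiquitinase of Mdm2 and p53. With the GC offsets, *Crebbp* was at -0.92, *Usp7* at -0.45, *Mdm4* at -0.38, *Prkdc* at -0.60 and *Atm* at -0.62. Adjusted p-values of *Prkdc*, *Atm*, *Crebbp* and *Usp7* were 0.196 to 0.267 by edgeR, and the genotypes did not overlap in any of them. Of all tested genes, 7.99% were separated with KO below WT. *Mdm2*, the main ubiquitin ligase for p53 and also its target, was at 99.3 ± 5.58 (WT) and 91.0 ± 2.67 CPM (KO), with a log2 fold change of -0.13 (95% interval -0.30 to 0.05) and every KO library below every WT library.

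Transcriptional targets of p53 showed no shared direction. Of 41 targets on a fixed list, all tested, 20 were higher and 21 lower in KO around a median of -0.01 (log2). An unadjusted edgeR p under 0.05 was reached by 3, 2 of them higher, against 10.4% of all tested genes. The lower 1, *Trp53inp1*, named after its value was seen, had a log2 fold change of -0.58. *Cdkn1a* was at 61.1, 99.2 and 77.6 CPM in WT and 84.7, 122.8 and 59.7 CPM in KO, so the genotypes overlapped widely (log2 fold change 0.17, 95% interval -0.48 to 0.82, and -0.11 to 0.42 with 1 library left out). *Ccng1* was at 39.2 ± 13.2 (WT) and 46.4 ± 1.91 CPM (KO). The 3′UTR of *Cdkn1a* held 2 matches to the miR-302 seed and that of *Ccng1* held 1. The part of these matches in the levels of both genes was not tested. The higher genes with the smallest p were *Plk3*, a stress-responsive kinase, at 4.86 ± 1.76 (WT) and 16.1 ± 6.89 CPM (KO) (log2 fold change 1.73, adjusted p = 0.16 by edgeR), and *Sfn*, a 14-3-3 protein of epithelia, at 2.02 ± 0.411 and 4.41 ± 1.81 CPM (log2 fold change 1.13, adjusted p = 0.331 by edgeR). *Plk3* has a stretch of 81.5% GC and was at 1.41 with the GC offsets. *Sfn* was at 2.39 CPM in KO replicate 2, only just above the highest WT library (2.33 CPM). DESeq2 did not call *Sfn* (adjusted p = 0.144 by DESeq2).

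Components of the apoptotic machinery downstream of the family differed little. Of 15 caspase and apoptosome genes, 11 were higher and 4 lower in KO, with a median of 0.02. An unadjusted p under 0.05 in edgeR was reached by 0 of them, against 10.4% of all tested genes. DESeq2 gave 0 of them an adjusted p under 0.05, against 4.87% of all genes with such a value. *Casp9* was at 57.6 ± 3.39 and 63.4 ± 6.41 CPM (log2 fold change 0.14, but -0.11 with the GC offsets), and *Apaf1* at 53.6 ± 6.95 and 44.4 ± 14.7 CPM. Neither was separated by genotype.

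Caspase inhibitors and death receptor genes likewise had 0 genes with an unadjusted p under 0.05 in edgeR and 0 called by DESeq2, of 8 tested in each. The shares over all genes were 10.4% in edgeR and 4.87% in DESeq2. *Xiap*, which blocks caspases directly, was at 11.2 ± 2.63 (WT) and 8.54 ± 1.83 CPM (KO), and *Birc5* (survivin), expressed in dividing cells, at 157.9 ± 23.2 and 154.4 ± 14.6 CPM. Of 12 mitochondrial partners, *Bag1*, a cochaperone that binds Bcl2, stood out at 79.7 ± 25.0 (WT) and 146.2 ± 17.96 CPM (KO), or 0.88 on the log2 scale (adjusted p = 0.173 by edgeR). It was 0.63 with the GC offsets, the richest stretch of *Bag1* having 79.5% GC.

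Of 17 further Bcl2 family genes, 11 were tested, 6 higher and 5 lower in KO. *Bnip3*, a hypoxia-induced mitophagy receptor, was the 1 with an unadjusted p under 0.05, at 49.0 ± 12.3 (WT) and 69.0 ± 5.60 CPM (KO) (log2 fold change 0.50, adjusted p = 0.391 by edgeR). Of all tested genes, 10.4% had such an unadjusted p. *Bok*, an effector related to Bax and Bak, was at 22.2 ± 4.94 and 22.9 ± 4.76 CPM, far above the counts of *Bak1*. *Bad* was at 32.5 ± 3.86 and 30.8 ± 1.995 CPM. *Bcl2l2* (Bcl-w) was low, at 2.004 ± 0.383 and 1.195 ± 0.390 CPM, or -0.73 on the log2 scale (95% interval -1.58 to 0.11). The 3 *Bcl2a1* genes on the list did not pass the filter.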

How the data were processed

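RNA of sorted *Pdx1-Cre* labelled cells (E10.5) was amplified with SMART-seq v4, made into libraries with Nextera XT and sequenced from both ends for 150 bp. After trimming of low-quality bases, the authors mapped reads with STAR (defaults, GRCm39) and deposited raw counts per gene from GenomicAlignments. Annotation, versions and the handling of strand and shared reads are not given in the sources used here.

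From these counts, edgeR 4.0.16 (R 4.3.3; filterByExpr, TMM, estimateDisp, glmQLFit and glmQLFTest at defaults) was fitted to all genes with genotype as the only term. Intervals of 95% used the t distribution with 7.26 degrees of freedom. DESeq2 1.42.0 was an alternative, and 14 settings were tried for every result, plus 7 with DESeq2 for *Mcl1* alone, which were added after the data were seen, as was edgeR's newer estimate of the spread, because the installed version's default proved to be the older one that had been planned as the alternative. The fits were tested on simulated counts. Libraries of one genotype differed beyond counting noise (chi-square per degree of freedom 28.0 to 45.6). Symbols were found for 94% of identifiers. Exon lengths, 3′UTRs and GC content came from GENCODE M21 (GRCm38).

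Members and lists were chosen with earlier results of these data known, and the immediate early list after the data were seen. Named were the members, 12 set genes, the 5 higher and 5 lower listed genes with the smallest p, and the 3 most like *Trp53*. A result for 1 of the set genes is not reported here. Replicate numbers did not pair libraries, the correlations of same-numbered deviations being -0.21, 0.25 and 0.08.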

Additional observations from a re-analysis of the deposited data

How the results depend on the processing

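Under the alternatives tried, *Mcl1* was higher in KO in 21 of 21 and *Bax*, *Bbc3*, *Bcl2*, *Bcl2l1* and *Trp53* kept their direction in 14 of 14. The count of genes with an adjusted p under 0.05, 0 in the reported edgeR fit, was 699 with DESeq2 (606 higher in KO), 264 without the filter on low counts, and 0 to 217 with 1 library left out, the 217 being without WT replicate 2. Without both libraries rich in hemoglobin, 788 genes, 6 listed pathway genes and 0 members had an unadjusted p under 0.05, where fewer libraries were fitted. With the replicate number as a block, which does not pair libraries here, calls were 0 genes by adjusted and 1693 by unadjusted p, and *Mcl1* had a log2 fold change of 0.75 (adjusted p = 0.362 by edgeR). Only KO replicate 2 correlated best with its own number.

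Directions changed for 3 genes, and the cause was not tested. *Bid* was at 0.0058 with DESeq2, 0.0033 with DESeq2's size factors, 0.0056 with the library code as a covariate and 0.022 with the GC offsets, and ranged from -0.064 to 0.079 with 1 library left out. *Bcl2l11* ranged from -0.23 to 0.049 and *Pmaip1* from -0.59 to 1.01 with 1 library left out, and without both libraries rich in hemoglobin they were at 0.082 and -0.34. *Bak1*, at 0 to 3 counts, was too low to test.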
